A study of Arabidopsis thaliana with 6 samples.

Results

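The 6 flavonol synthase loci of Arabidopsis thaliana (FLS1 to FLS6) and the genes of 3 related MYB transcription factors (MYB11, MYB12 and MYB111) were followed on 6 arrays. These 9 loci were taken by their locus identifiers and gave 10 of the 37118 features of the array, because FLS5 has 2. Each feature summarised 3 or 4 probes. RNA of whole plants of ecotype Columbia, 3 weeks old, was compared between the 35S::VvMYBPAR lines PAR18-2, PAR9-2 and PAR36-4 and the empty vector lines Cont1-1, Cont2-3 and Cont5-1. VvMYBPAR is a grapevine MYB factor, and the viral 35S promoter drives it in most tissues, not only where such a factor normally acts. Plants of both groups carried a transformation vector and were raised on kanamycin agar (30 mg/l) at 22 °C with daily light periods of 16 h. Each line gave 1 sample and 1 array, and the labels say that samples came from separate cultures, so line, culture and array cannot be told apart in the spread between samples. The features carry Arabidopsis identifiers, so the grapevine transcript was not measured here.

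Flavonols such as kaempferol and quercetin are colourless flavonoids that plants keep as sugar conjugates, and in Arabidopsis leaves and seedlings they serve as ultraviolet screens and modulators of auxin transport. Flavonol synthase oxidises dihydroflavonols to flavonols and so stands at a branch point, because dihydroflavonol reductase (DFR) takes the same substrates towards anthocyanins and proanthocyanidins, the tannins of the seed coat. MYB11, MYB12 and MYB111 form a subgroup of R2R3 MYB factors that activate FLS1 and the early enzymes of the pathway, and they do so without the bHLH partner that tannin-type MYB factors need. MYB12 is known mainly from roots and MYB111 mainly from cotyledons and leaves.

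All values are log2 of RMA intensities, a background-corrected and quantile-normalised brightness. Levels of different features cannot be set against each other, because probes differ in brightness. Feature means fell into 2 modes, a dim and a bright one, parted at 7.12, and values of the low mode may be background, since the files used here hold no detection call. Median intensities lay between 859 and 887 on the 6 arrays, and correlations between arrays were 0.984 to 0.993. Leaf and root markers were read on every array: the mean of the 6 leaf markers lay between 13.86 and 14.44 and that of the 9 root markers between 9.69 and 10.09. No leaf, root, floral or clock marker passed between the groups. Of the root markers 7 of 9 had log2 differences above 0, and of the leaf markers 2 of 6, against 53.7% of all features. They ranged from -0.37 to 0.48 (median 0.20) for root markers and from -0.90 to 0.09 (median -0.03) for leaf markers. Of each list, the 2 genes with the smallest p are given here. The root stem cell gene WOX5 stood in the low mode on all 6 arrays with a log2 difference of 0.48 (SE 0.12), and the root meristem gene PLT1 had 0.32 (SE 0.18), and 0.15 without Cont5-1. Of the light-harvesting genes, CAB3 had -0.13 (SE 0.15), and LHCB2.1 had -0.90 (SE 0.74), with 10.77 in PAR9-2 and 13.42 to 13.64 on the other arrays. Without PAR9-2 these were 0.0146 and 0.0155. The array of PAR9-2 stood apart in its morning clock genes, and values without it are given where they differ by over 1.5 times or in sign.

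No member passed the test in either direction. Limma, fitted to all features with Benjamini-Hochberg adjustment and a threshold of 0.05, called 0 of 10 member features higher, where 0.00539% of all features were called higher, and 0 lower, where 0% were. Over the whole array 2 features were called, and 0 in 5 of the 6 fits that left out 1 line. Without adjustment, 2 of the 10 features (MYB11 and MYB111) had a p under 0.05, and 4.32% of all features did. The groups did not overlap for 1 of the 10 features, MYB111, with the 35S::VvMYBPAR lines higher; this was so for 6.32% of all features, and 3.67% were separated with the lines lower. The median log2 difference was 0.28 over the 10 member features and 0.02 over all features, and 9 of the 10 were above 0 against 53.7% of all features.

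**Figure D1:**
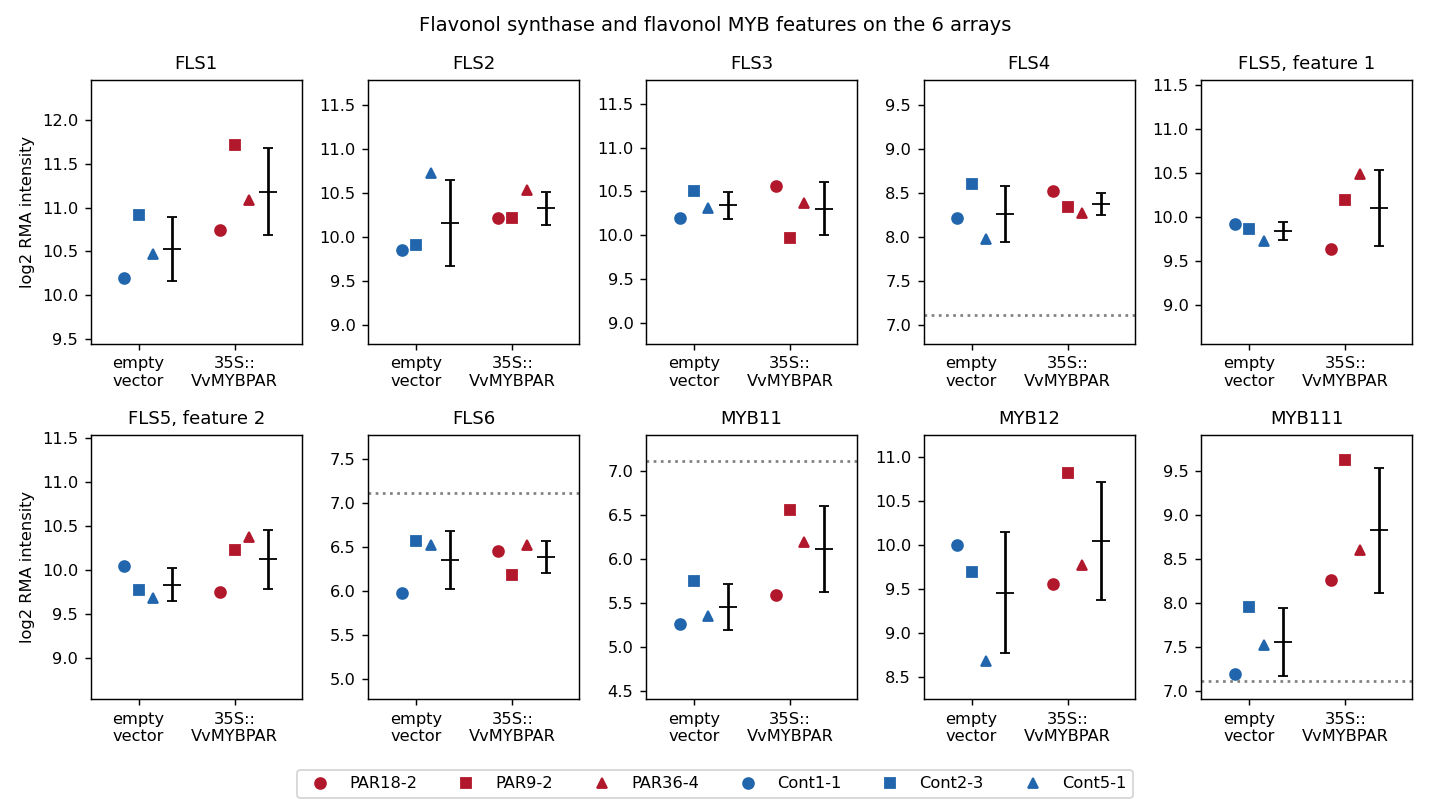
Log2 RMA intensity of each member feature on each array (blue, empty vector; red, 35S::VvMYBPAR; symbols mark the lines; black, mean and SD of 3 arrays; dotted, boundary between the low and high modes at 7.12). Every panel spans 3 log2 units. MYB111 is the panel in which all red points lie above all blue points, and PAR9-2 is the highest point for FLS1, MYB11, MYB12 and MYB111.

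MYB111 (AT5G49330) had the largest log2 difference of the 10 member features. Its log2 values were 8.26 in PAR18-2, 9.62 in PAR9-2 and 8.60 in PAR36-4, against 7.19 in Cont1-1, 7.95 in Cont2-3 and 7.52 in Cont5-1. All 3 lines with the grapevine factor lay above the highest control, by the smallest margin for PAR18-2, while the control values reached down to the edge of the low mode. The log2 difference was 1.28 (SE 0.38; 95% interval 0.35 to 2.20), a 2.42-fold difference with an interval of 1.27 to 4.60. It ranked 377 of 37118 by p and did not pass (limma, adjusted p = 0.915). Without PAR9-2 the log2 difference was 0.88 (SE 0.26), and over the 6 fits that left out 1 line it stayed between 0.88 and 1.56.

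The spread of MYB12 (AT2G47460) within the groups, with SDs of 0.67 and 0.69, was larger than the difference between them. Its log2 values were 9.56 in PAR18-2, 10.81 in PAR9-2 and 9.77 in PAR36-4. In the controls they were 9.999 in Cont1-1, 9.69 in Cont2-3 and 8.68 in Cont5-1. The groups overlapped: Cont1-1 was above PAR18-2 and PAR36-4, and only PAR9-2 stood above all controls. The log2 difference was 0.59 (SE 0.45; 95% interval -0.51 to 1.69; limma, adjusted p = 0.915). It was 0.21 without PAR9-2 and 0.20 without Cont5-1, the lines at the 2 ends of its range. Its range over the 6 arrays, 2.14, was wider than that of 97.4% of all features ranked by range.

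MYB11 (AT3G62610) stood in the low mode on all 6 arrays, so no fold is given. It read 5.59 in PAR18-2, 6.55 in PAR9-2 and 6.19 in PAR36-4, against 5.26 in Cont1-1, 5.75 in Cont2-3 and 5.35 in Cont5-1. The groups overlapped because Cont2-3 was above PAR18-2. The log2 difference was 0.66 (SE 0.27; 95% interval 0.01 to 1.31; limma, adjusted p = 0.915), and 0.44 without PAR9-2.

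FLS1 (AT5G08640) encodes the main flavonol synthase of Arabidopsis. Its log2 values were 10.74 in PAR18-2, 11.71 in PAR9-2 and 11.08 in PAR36-4. The controls had 10.19 in Cont1-1, 10.92 in Cont2-3 and 10.47 in Cont5-1. PAR9-2 and PAR36-4 lay above all controls, and PAR18-2 lay below Cont2-3, so the groups overlapped. The group means were 11.18 ± 0.49 (SD, n = 3) and 10.53 ± 0.37 (SD, n = 3). The log2 difference was 0.65 (SE 0.30; 95% interval -0.06 to 1.37; limma, adjusted p = 0.915), which as a fold is 1.57 with an interval of 0.956 to 2.58. Thus neither an unchanged level nor a 2.58-fold rise lay outside the interval. Without PAR9-2 the log2 difference was 0.39 (SE 0.25), and without PAR18-2 it was 0.87 (SE 0.29).

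FLS2, FLS3, FLS4 and FLS5 follow each other directly on chromosome 5 in RefSeq (assembly TAIR10.1), while FLS1 and FLS6 lie elsewhere on the same chromosome. The products of these other loci are known to have little or no flavonol synthase activity, FLS3 being the one for which some activity has been found. The tandem copies resemble each other in sequence, and as the probe sequences were not used here, signal shared between copies cannot be told apart from expression of each. Their groups overlapped in every case and their log2 differences, from -0.04 to 0.29, were smaller than that of FLS1, but the difference between members was not tested.

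FLS2 (AT5G63580) read 10.22 in PAR18-2, 10.22 in PAR9-2 and 10.54 in PAR36-4, against 9.85 in Cont1-1, 9.91 in Cont2-3 and 10.72 in Cont5-1. The highest value and the 2 lowest were controls. Its log2 difference was 0.16 (SE 0.26; 95% interval -0.46 to 0.78). It ranged from 0.00478 without Cont1-1 to 0.44 without Cont5-1 when 1 line was left out.

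FLS3 (AT5G63590) read 10.57 in PAR18-2, 9.98 in PAR9-2 and 10.37 in PAR36-4, against 10.20 in Cont1-1, 10.51 in Cont2-3 and 10.32 in Cont5-1. It was lowest in PAR9-2, the array in which FLS1 was highest. Its log2 difference was -0.04 (SE 0.18; 95% interval -0.47 to 0.40), and 0.13 without PAR9-2. FLS4 (AT5G63595) read 8.52 in PAR18-2, 8.34 in PAR9-2 and 8.27 in PAR36-4, against 8.22 in Cont1-1, 8.61 in Cont2-3 and 7.98 in Cont5-1. All 3 of its values in the lines with the grapevine factor lay inside the range of the controls, with a log2 difference of 0.11 (SE 0.18; 95% interval -0.33 to 0.55). It was 0.28 without Cont2-3 and -0.04 without Cont5-1.

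The 2 features of FLS5 (AT5G63600) behaved alike. The first read 9.64 in PAR18-2, 10.19 in PAR9-2 and 10.48 in PAR36-4, against 9.92 in Cont1-1, 9.87 in Cont2-3 and 9.72 in Cont5-1. The second read 9.75, 10.23 and 10.38 in the same lines, against 10.05, 9.77 and 9.68. On both features PAR36-4 and PAR9-2 were highest and PAR18-2 was below Cont1-1 and Cont2-3. Their log2 differences were 0.27 (SE 0.22; 95% interval -0.27 to 0.81) and 0.29 (SE 0.20; 95% interval -0.19 to 0.76), with 0.08 and 0.16 without PAR36-4 and 0.50 and 0.47 without PAR18-2.

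FLS6 (AT5G43935), which lies apart from the tandem copies, stood in the low mode on all 6 arrays. It read 6.46 in PAR18-2, 6.18 in PAR9-2 and 6.53 in PAR36-4, against 5.98 in Cont1-1, 6.57 in Cont2-3 and 6.52 in Cont5-1. Its log2 difference was 0.04 (SE 0.19; 95% interval -0.44 to 0.51), with 0.14 without PAR9-2, and the sign turned under another quantile normalisation (-0.02).

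**Figure D2:**
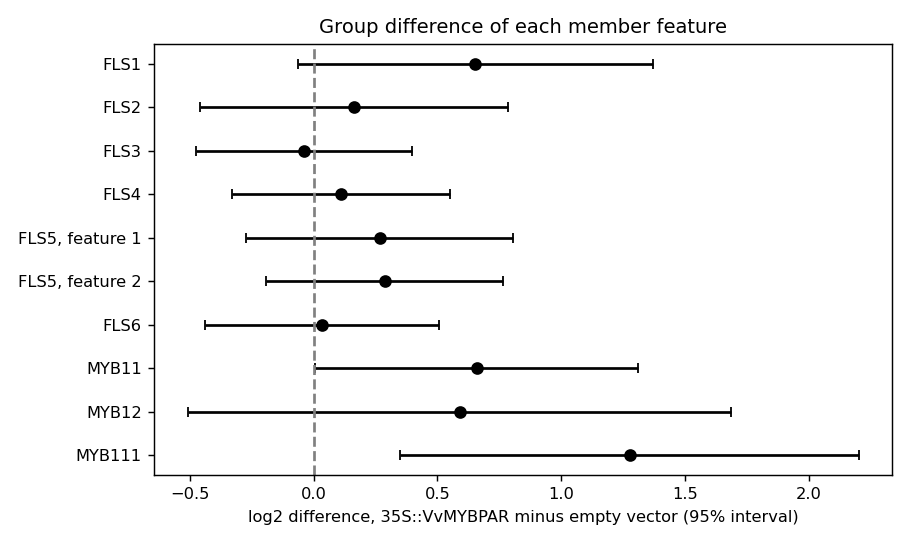
Log2 difference between the group means of each member feature (35S::VvMYBPAR minus empty vector) with its 95% interval from the moderated fit, without adjustment for multiple testing. The intervals of MYB111 (0.35 to 2.20) and MYB11 (0.01 to 1.31) lie above 0, and no feature passed after adjustment over all 37118. MYB11 is in the low mode on all 6 arrays.

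The members did not vary together as one group. FLS1 and MYB11 put the 6 arrays in the same order, from PAR9-2, PAR36-4 and Cont2-3 down to PAR18-2, Cont5-1 and Cont1-1. MYB111 had this order with Cont2-3 and PAR18-2 exchanged. MYB12 had another, in which Cont1-1, the lowest array for the other MYB genes and FLS1, came second. With each profile centred on its own mean, the root mean square difference over the 6 arrays was 0.11 between FLS1 and MYB11, 0.34 between FLS1 and MYB111 and 0.48 between FLS1 and MYB12. By this measure the profiles farthest apart were those of FLS3 and MYB111, at 0.89. The measure also grows with the range of a profile over the arrays. The Pearson correlation with FLS1 was 0.97 for MYB11, 0.97 for MYB111 and 0.65 for MYB12. The points share arrays and normalisation, and the comparison is a description of 6 arrays.

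These orders were set, after the values were seen, beside those of clock and floral genes. The clock score is the mean of the morning genes CCA1, LHY and PRR9 minus that of the evening genes TOC1, ELF4, LUX and GRP7, in log2. It was -5.84 in PAR9-2, -2.22 in Cont1-1, -0.27 in PAR36-4, 0.20 in Cont2-3, 0.67 in PAR18-2 and 2.51 in Cont5-1. From the lowest score to the highest, this is the order of MYB12 from its highest array to its lowest. With the score as a covariate, the log2 difference of MYB12 was 0.16 (SE 0.18), against 0.59 without it, while those of MYB111 and FLS1 were 1.05 (SE 0.36) and 0.50 (SE 0.30). PAR9-2 differed most, with CCA1 at 7.54 and LHY at 7.53, where the other arrays had 11.62 to 13.50 and 9.83 to 13.04. Of the evening genes, TOC1, ELF4 and GRP7 were highest there, ELF4 at 13.20 and GRP7 at 14.87, while LUX was highest in Cont1-1. The mean of the evening genes was 13.26 in PAR9-2 and 13.22 in Cont1-1. Between the groups, CCA1 and LHY had log2 differences of -1.76 (SE 1.43) and -1.25 (SE 1.32), and ELF4 and GRP7 of 0.95 (SE 1.18) and 0.54 (SE 0.56). Without PAR9-2 these were -0.06 for CCA1, 0.09 for LHY, 0.28 for ELF4 and 0.32 for GRP7, and without Cont5-1 ELF4 and GRP7 had -0.28 and -0.09. Whether the hour of harvest differed is not given in the sources used here.

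The other order followed floral organ genes. The mean of the organ identity genes SEP1, SEP2, SEP3, AG, PI, AP3 and AP1, as a log2 difference from the empty vector mean, was 1.04 in PAR36-4, 0.93 in PAR9-2, 0.71 in Cont2-3, 0.18 in PAR18-2, 0.04 in Cont5-1 and -0.75 in Cont1-1. All 7 had log2 differences above 0 between the groups, against 53.7% of all features, and none passed. SEP1 had 0.74 (SE 0.24) and AP1 had 0.80 (SE 0.35), the latter 0.49 without Cont1-1. The list mean ranged from 9.48 to 10.34 in the lines with the grapevine factor and from 8.55 to 10.02 in the controls. AG and PI were in the low mode in Cont1-1. FLS1 and MYB11 had the same order of arrays, apart from the exchange of PAR9-2 and PAR36-4 at the top. With the floral mean as a covariate, the log2 difference was 0.25 (SE 0.26) for FLS1, 0.30 (SE 0.24) for MYB11 and 0.82 (SE 0.37) for MYB111, and 0.56 (SE 0.58) for MYB12. In whole plants, more cells of a type and more RNA per cell cannot be told apart. The part of harvest time and of flower content in the members' differences was not tested. The fits with the clock score or the floral mean cannot decide it, as these measures come from the same arrays as the members. They were also set beside the members only after the values were seen. Both measures differed between the group means, so such a fit can take up part of the group difference whatever the cause. Each fit had 3 residual degrees of freedom among arrays.

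**Figure D3:**
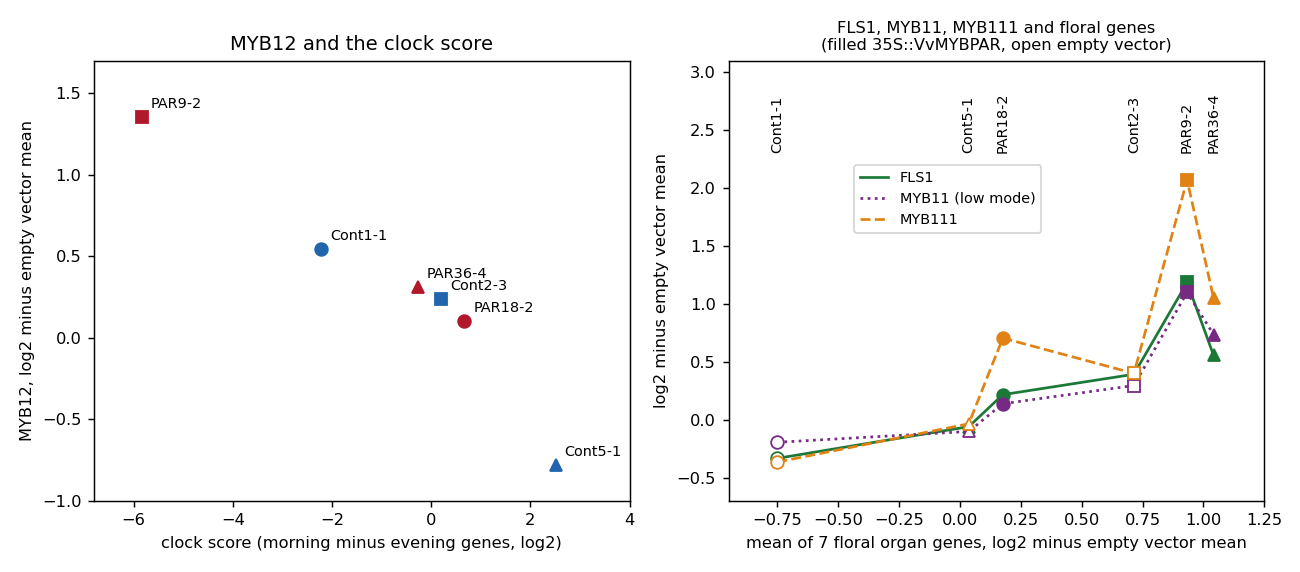
Left, MYB12 (log2 minus the empty vector mean) against the clock score of each array, where MYB12 falls from 1.36 in PAR9-2 to -0.78 in Cont5-1 as the score rises. Right, FLS1, MYB11 and MYB111 against the mean of 7 floral organ genes, with lines that join the arrays in the order of the floral mean: FLS1 goes from -0.33 in Cont1-1 to 1.19 in PAR9-2 and 0.56 in PAR36-4, with MYB11 close to it and MYB111 up to 2.07.

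MYB21, MYB24 and MYB57 are MYB factors of stamens that are known to act on FLS1 in flowers, and MYB99 acts in the tapetum. None of these 4 genes passed. Of the 4, 3 had log2 differences above 0, against 53.7% of all features, and the 4 values lay between -0.18 and 1.08. MYB57 was in the low mode on all 6 arrays and MYB24 on 4 of them. MYB21 was in the low mode on all arrays and had a log2 difference of 1.08 (SE 1.03), which was -0.20 without PAR36-4, the array in which it read 6.98 against 2.89 to 3.64 elsewhere. MYB99 read 7.51, 8.27 and 7.96 in PAR18-2, PAR9-2 and PAR36-4 and 6.32, 9.12 and 6.32 in Cont1-1, Cont2-3 and Cont5-1, with a log2 difference of 0.66 (SE 0.77). Leaving out 1 control moved it from 0.19 without Cont1-1 to 1.59 without Cont2-3. MYB99 was in the low mode in Cont1-1 and Cont5-1.

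The loci whose profiles lay nearest to those of FLS1, MYB12 and MYB111 were sought among features above the mode minimum that varied at least 0.5 times as much as the member. Nearest to FLS1 among 6109 features was AT3G15650, at a root mean square difference of 0.11, then AT1G53070 (0.15), FRO1 (0.15), AT5G38010 (0.15) and AAE18 (0.15). MYB11, at 0.11 from FLS1, was outside this search because of its low mode. Nearest to MYB12 among 3722 features were AT1G31690 (0.09), AT1G30280 (0.10), AT3G16565 (0.14), AT1G16850 (0.15) and emb2746 (0.16). Nearest to MYB111 among 2336 were AT3G49270 (0.12), HPL1 (0.18), ANK (0.20), SCPL43 (0.21) and AT4G00870 (0.22). None of these 15 loci was a member or stood on a list used here, and with 6 arrays many features can share a profile.

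At the branch point, the difference of FLS1 between the groups exceeded that of DFR by less than its error. DFR read 11.66 in PAR18-2, 12.10 in PAR9-2 and 11.95 in PAR36-4, against 11.12 in Cont1-1, 11.43 in Cont2-3 and 11.98 in Cont5-1, a log2 difference of 0.40 (SE 0.24). That of DFR was 0.20 without Cont1-1 and 0.63 without Cont5-1. The log2 difference FLS1 minus DFR on the same array was -0.92, -0.39 and -0.87 in PAR18-2, PAR9-2 and PAR36-4, and -0.92, -0.51 and -1.51 in Cont1-1, Cont2-3 and Cont5-1. Only changes of this value between arrays can be read. The controls enclosed all 3 values of the other group except that of PAR9-2, and the group difference was 0.25 (SE 0.33). An exact two-sided permutation test over the 20 splits gave p = 0.4, where 3 against 3 cannot go below 0.1. Without Cont5-1 the difference was -0.01. Much of it also came from PAR9-2, as PAR18-2 and PAR36-4 had -0.92 and -0.87 against a control mean of -0.98 ± 0.50 (SD, n = 3).

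Further along the other branch, LDOX, which makes anthocyanidins, had a log2 difference of 0.47 (SE 0.20) that did not pass and was 0.30 without PAR9-2. BAN, anthocyanidin reductase and the entry to tannins, was the member of this list that rose, from 4.71 ± 0.05 (SD, n = 3) to 10.92 ± 0.68 (SD, n = 3). This is 6.21 in log2 (SE 0.33) and passed (limma, adjusted p = 0.0283). Its controls were in the low mode, and the call was lost in each fit that left out a line other than PAR18-2.

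The enzymes upstream of flavonol synthase, known targets of the flavonol MYB factors, had log2 differences in the same direction as FLS1. These ranged from 0.22 for F3H, which was in the low mode, to 0.77 for 4CL3. None of 6 passed, where 0.00539% of all features were called higher. All 6 were above 0 against 53.7% of all features, and their median log2 difference was 0.35 against 0.02. The groups did not overlap for 2 of them, 4CL3 and CHS, with the 35S::VvMYBPAR lines higher, as for 6.32% of all features. 4CL3, a coumarate ligase tied to flavonoids, read 10.62, 11.25 and 10.66 in PAR18-2, PAR9-2 and PAR36-4 and 9.57, 10.53 and 10.14 in Cont1-1, Cont2-3 and Cont5-1, a log2 difference of 0.77 (SE 0.29). Chalcone synthase (CHS) read 13.61, 13.70 and 13.66 against 13.05, 13.56 and 13.48, a log2 difference of 0.29 (SE 0.16), and 0.14 without Cont1-1. In both genes the lowest array was Cont1-1, as for FLS1. CHI and CHIL, chalcone isomerase and its helper, had 0.40 (SE 0.21) and 0.25 (SE 0.18). They had 0.24 and 0.13 without PAR9-2 and 0.245 and 0.09 without Cont1-1. F3'H, which turns kaempferol-type into quercetin-type precursors, had 0.49 (SE 0.23), and 0.28 without PAR9-2. F3H, which makes dihydroflavonols, had 0.22 (SE 0.36) with all 6 arrays in the low mode, and -0.05 without PAR9-2.

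Genes of the flavonol decoration list, most of which attach sugars or methyl groups to flavonols or supply the sugar, varied in both directions. None of 9 passed, where 0.00539% of all features were called higher and 0% lower. The log2 differences of 7 of the 9 were above 0 against 53.7% of all features, with a median of 0.29 against 0.02. The groups overlapped for all 9, where 6.32% of all features were separated with the lines higher and 3.67% with them lower. UGT84A1 and UGT91A1, glycosyltransferase genes that depend on the flavonol MYB factors, had the largest values, 0.87 (SE 0.37) and 0.85 (SE 0.47). In the low mode stood UGT84A1 in Cont1-1, at 6.88, and UGT91A1 in PAR36-4 and Cont5-1, at 7.01 and 6.19. Both were highest in PAR9-2, at 8.84 and 8.54, and without that line UGT91A1 had 0.45, while UGT84A1 had 0.56 without Cont1-1. The flavonol rhamnosyl- and glucosyltransferase genes UGT78D1, UGT89C1 and UGT78D2 had 0.39 (SE 0.18), 0.29 (SE 0.19) and 0.15 (SE 0.18). The arabinosyltransferase gene UGT78D3, in the low mode on 4 of the 6 arrays, had 0.32 (SE 0.19). RHM1, for the synthesis of UDP-rhamnose, had 0.20 (SE 0.11). Leaving out 1 line took UGT78D1 to 0.23 and UGT78D2 to -0.03 (both without Cont1-1), UGT89C1 to 0.17 and UGT78D3 to 0.18 (both without PAR9-2), and UGT89C1 to 0.14 (without Cont5-1). UGT73C6, a glucosyltransferase gene, had -0.38 (SE 0.53), with 7.30 in PAR36-4 and 8.18 to 9.31 on the other arrays, and ranged from -0.75 without PAR9-2 to 0.18 without PAR36-4. The methyltransferase gene OMT1 had -0.10 (SE 0.16), and 0.04 without PAR9-2.

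**Figure D4:**
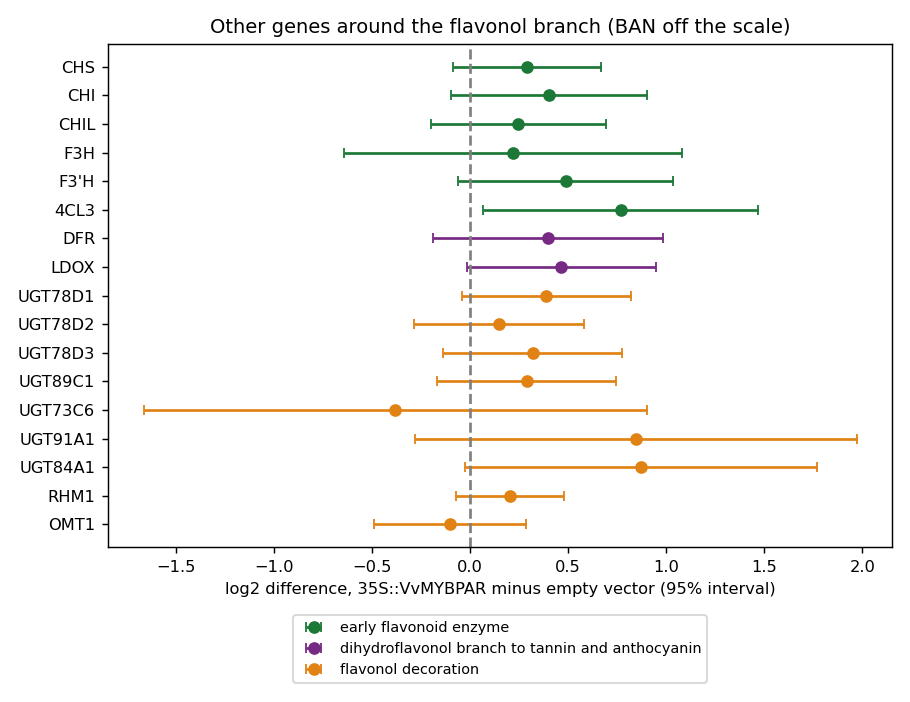
Log2 difference between group means (35S::VvMYBPAR minus empty vector) with 95% intervals for early flavonoid enzymes (green), DFR and LDOX (purple) and flavonol decoration genes (orange). Most points lie between 0.15 and 0.49, the interval of 4CL3 lies above 0 without adjustment, and BAN, at 6.21, is left off the scale.

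Regulators that act on the flavonol MYB genes or against them did not pass either. Of 9 light signalling genes, 3 were above 0, against 53.7% of all features. The list includes HY5, the bZIP factor that activates MYB12 and MYB111 in light. The log2 differences of the 9 lay between -0.28 and 0.13 with a median of -0.03. The 2 with the smallest p were the B-box gene BBX21 at -0.28 (SE 0.19) and the blue light receptor gene CRY1 at -0.22 (SE 0.16). Without PAR9-2 they had -0.11 and -0.07. Of 4 MYB repressors of phenylpropanoid and flavonoid genes, 2 were above 0, against 53.7% of all features. The groups did not overlap for MYB4, 1 of these 4, with the lines carrying the grapevine factor higher, as for 6.32% of all features. MYB4 read 11.21, 11.98 and 11.29 in PAR18-2, PAR9-2 and PAR36-4 against 10.77, 11.02 and 10.70 in Cont1-1, Cont2-3 and Cont5-1. Its log2 difference was 0.66 (SE 0.23; limma, adjusted p = 0.915), and 0.42 without PAR9-2. MYB7 had -0.21 (SE 0.15), and -0.14 without PAR9-2. MYB4 was highest in PAR9-2, as were FLS1 and all 3 flavonol MYB genes. Of the other repressors, MYB32 was highest there too, while MYB7 and MYBL2 were lowest there. MYBL2 read 11.90 in PAR9-2 and 13.34 to 13.50 on the other arrays.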

How the data were processed

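RNA of 6 whole-plant samples was hybridised to NimbleGen arrays with 1 colour (Cy3), and groups and lines were taken from the labels. The authors deposited 1 linear intensity per feature and array, made with RMA per the file headers. The submitters' processing notes also name RMA. Its version, the probe annotation and the genome build were not given in the sources used here. Because RMA equalises the distribution of values over arrays, a common shift of most transcripts is hidden. The log2 values in the deposited series table differed from log2 of these intensities by at most 1.66e-06. By their names all arrays lay on the same slide and were scanned together.

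Log2 intensities of all 37118 features (32627 loci) were fitted in R 4.3.3 with limma 3.58.1 (lmFit, eBayes, no filter, no covariate), as MYBPAR minus empty vector, with Benjamini-Hochberg adjustment over all features and a threshold of 0.05. Intervals are 95% intervals of this fit. The minimum between the modes came from a density estimate of the feature means. A locus on a list was read from its feature with the highest mean; all member features are given. Arrays carry no counts, and their number limits the precision.

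Named genes are all features of the 9 loci, all genes of the early enzyme, decoration and branch lists, from each other list those called or else the 2 with the smallest p, and the 5 nearest loci of FLS1, MYB12 and MYB111. Other members of a list are named where the list as a whole is described. The members and lists were chosen with earlier results of these data known. No sequences are shown because none were in the reference used here. Names come from the RefSeq gene table of TAIR10.1, which matched 31993 of the 32627 loci.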

Additional observations from a re-analysis of the deposited data

How the results depend on the processing

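Under all 18 alternatives, 0 member features were called in either direction. The smallest adjusted p of a member was 0.397, for MYB11 without MYBPAR replicate 1 (PAR18-2). The replicates 1, 2 and 3 of the labels are PAR18-2, PAR9-2 and PAR36-4, and Cont1-1, Cont2-3 and Cont5-1. Over the whole array 2 features were called higher, against 0 with no moderation, 0 with the clock score as a covariate and 0 with the floral mean as a covariate. Leaving out 1 line gave 0 to 3 calls, with 0 in 5 of the 6 fits. With the replicate number as a block, 0 features were called, 0 of them members. Same-numbered lines did not deviate together throughout (correlations 0.30, -0.06 and 0.24), so the numbers were not taken as pairs.

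FLS1, FLS2, both FLS5 features and the 3 MYB genes kept the sign of their log2 difference in all alternatives. The unadjusted limma p of MYB11 was 0.0482 as reported. It was 0.0525 with centring on array medians, 0.0573 with eBayes with trend and robust, and 0.0586 with array weights. With another quantile normalisation it was 0.0409, and with the replicate block 0.00986. FLS3 turned to 0.0906 with the clock covariate and ranged from -0.17 to 0.13 when 1 line was left out. FLS4 turned to -0.0163 with array weights and ranged from -0.0356 to 0.28. FLS6 turned to -0.0184 with another quantile normalisation, -0.00556 with array weights and -0.16 with the floral covariate, and ranged from -0.15 to 0.14. FLS1 minus DFR ranged from -0.00947 to 0.49 when 1 line was left out. Among the other genes, the floral covariate turned UGT78D2 to -0.0839, UGT73C6 to 0.20 and MYB99 to -0.43, and the clock covariate turned OMT1 to 0.0116, LHY to 0.0857 and ELF4 to -0.0861. When 1 line was left out, F3H ranged from -0.0543 to 0.58, UGT78D2 from -0.0341 to 0.28, UGT73C6 from -0.75 to 0.18, OMT1 from -0.21 to 0.0415, MYB21 from -0.20 to 1.85, LHY from -2.17 to 0.0944, GRP7 from -0.0896 to 0.99, ELF4 from -0.28 to 1.95, LHCB2.1 from -1.42 to 0.0155 and CAB3 from -0.22 to 0.0146. Causes were not tested. The 3 arrays per group limit every value.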
